A study of Saccharomyces cerevisiae with 18 samples.

Results

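Ste12 is the yeast transcription factor that carries both the mating pheromone signal and the signal for invasive growth. New sites shared by several Ste12 variants are genome positions where at least 2 different single amino acid changes gave insertions and none was detected with wild-type Ste12. The sites were selected on the calling-card values themselves: a peak was taken when it had no insertion in either wild-type replicate and at least 1 in both replicates of at least 2 of the 6 variants. This rule took 186 of 2188 listed peaks (8.50%), and 18.5% of the 1006 peaks that were at 0 in both wild-type replicates. A further 509 peaks met the wild-type side of the rule and had both replicates of 1 variant only. The counts and levels of insertions at these sites are therefore descriptions and carry no test.

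In the calling-card method each Ste12 protein is fused to the PiggyBac transposase, which leaves a transposon at a TTAA close to the DNA that the fusion binds. The fusion was made from the strong, galactose-inducible GAL1 promoter in a MATα BY4705 strain that kept its own STE12 gene, with 2 replicates for wild type (WT) and for each variant. Expression was measured by RNA-seq in another background, a ste12Δ version of BY4705 that carried STE12 or the variant under its own promoter on a centromeric plasmid, with 5 replicates each. Growth differed too: calling-card cells were induced on galactose plates, whereas RNA-seq cells were grown to exponential phase. By the phenotypes that the study gives, K146D, K152L and A160P are mating-defective and K150A, K150I and S158H are mating-competent. K146D, K152L, K150A and K150I are hyper-invasive, S158H is invasion-defective, and A160P invades like WT.

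When pheromone reaches a cell, a G protein and a kinase cascade release Ste12 from the inhibitors Dig1 and Dig2, and Ste12 then turns on mating genes, alone or together with Mcm1. Under filamentation conditions Ste12 acts with a partner, Tec1, at genes of invasive growth. All of the substituted residues lie in the DNA-binding domain of Ste12.

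Insertions were counted by a unique molecular identifier (UMI), a random tag carried by each copy of the donor transposon, and levels are given as UMIs per 1000000 UMIs in the listed peaks of a library (UPM). The 12 variant libraries held 5904 to 9456 UMIs in listed peaks, so that 1 UMI was worth 106 to 169 UPM. The paper reports much lower transposition efficiency for K146D, K152L and A160P than for WT and the mating-competent variants. UPM is a share within each library and does not carry that difference, so levels compared between variants are relative. The WT libraries differed, with 12778 UMIs over 1168 peaks in replicate 1 and 6165 UMIs over 393 peaks in replicate 2. A count of 0 in both WT libraries allows a level of up to 158.4 UPM, taking 3 UMIs over their sum, and this limit covers counting error only. The second-highest variant holding a site was above this limit at 157 of the 186 sites (84.4%). At the rest the WT zero does not separate WT from that variant. The zero in WT rested mainly on replicate 1: without that library 482 peaks met the rule, and without WT replicate 2 there were 189. Just outside the rule were 113 peaks with a single WT UMI, whose highest variant had a median of 860 UPM, and 269 new sites of 1 variant with UMIs in 1 replicate of another, at a median of 75.4 UPM in that other variant. In RNA-seq, markers of α cells summed to 724 to 5210 counts per 1000000 (CPM) and markers of a cells to 21.9 to 148 CPM over the 35 libraries. STE12 RNA ran from 130 to 185 CPM in WT and, as group medians, from 222 CPM in S158H to 660 CPM in A160P, which does not check the substitution each plasmid carries. It was called higher than WT in K146D, K152L, A160P and K150A, and with the replicate number as a block also in K150I (edgeR adjusted p = 3.15e-07) and S158H (edgeR adjusted p = 0.04), and its part in the expression results was not tested. Each RNA-seq library held 1039390 to 5481822 counts.

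Most shared new sites belonged to few variants. Of the 186 sites, 139 were held by 2 variants, 38 by 3 and 9 by 4, and none by 5 or by all 6. S158H held the most, 94, followed by K150A with 75, K146D with 72, K150I with 65, K152L with 64 and A160P with 58. As a share of each variant's own new sites the order differed. The shared sites were 66.3% of the 98 new sites of K150I, 59.8% of the 107 of K152L and 54.3% of the 173 of S158H, against 45.2% of the 166 of K150A, 33.5% of the 215 of K146D and 32.6% of the 178 of A160P.

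Shared new sites were held both within and across the mating classes. Of the 186 sites, 102 (54.8%) were held by variants of both mating classes, 49 (26.3%) by mating-competent variants only and 35 (18.8%) by mating-defective variants only. Of the 139 sites held by 2 variants, 65 (46.8%) joined the classes, where 9 of the 15 possible pairs do. Of the 47 sites held by 3 or 4 variants 37 were held across the classes, a count that the class size of 3 largely fixes. A single site, chrXI:454139-454283, was held by all 3 mating-defective variants and by no other, and 9 were held by all 3 mating-competent variants and by no other. By invasion class, 48 sites (25.8%) were held by hyper-invasive variants only, and none of them by all 4. Of the 139 sites held by 2 variants, 46 (33.1%) were held by hyper-invasive variants only, where 6 of the 15 possible pairs are. The pair of A160P and S158H, neither of which is hyper-invasive, held 8 sites alone (5.76% of the 139), as 1 of the 15 possible pairs. The shares of the 15 possible pairs weigh all pairs alike, although the variants had from 98 (K150I) to 215 (K146D) new sites. They are therefore no measure of how many sites each class should hold.

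Among the 15 pairs of variants, K150I and S158H shared the most sites, 40, which were 40.8% of the new sites of K150I and 23.1% of those of S158H. K150A and S158H shared 37, which were 22.3% and 21.4% of their new sites. K152L and A160P shared 32, 29.9% of the new sites of K152L and 18.0% of those of A160P, and K146D and S158H also shared 32, 14.9% and 18.5%. At the other end, K146D with A160P and K152L with S158H each shared 10. Relative to all new sites of the pair, the 3 mating-competent pairs shared 7.32% to 17.3%, the 3 mating-defective pairs 2.61% to 12.7%, and the 9 pairs across the classes 3.70% to 11.4%, so the 3 ranges overlapped.

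**Figure D1:**
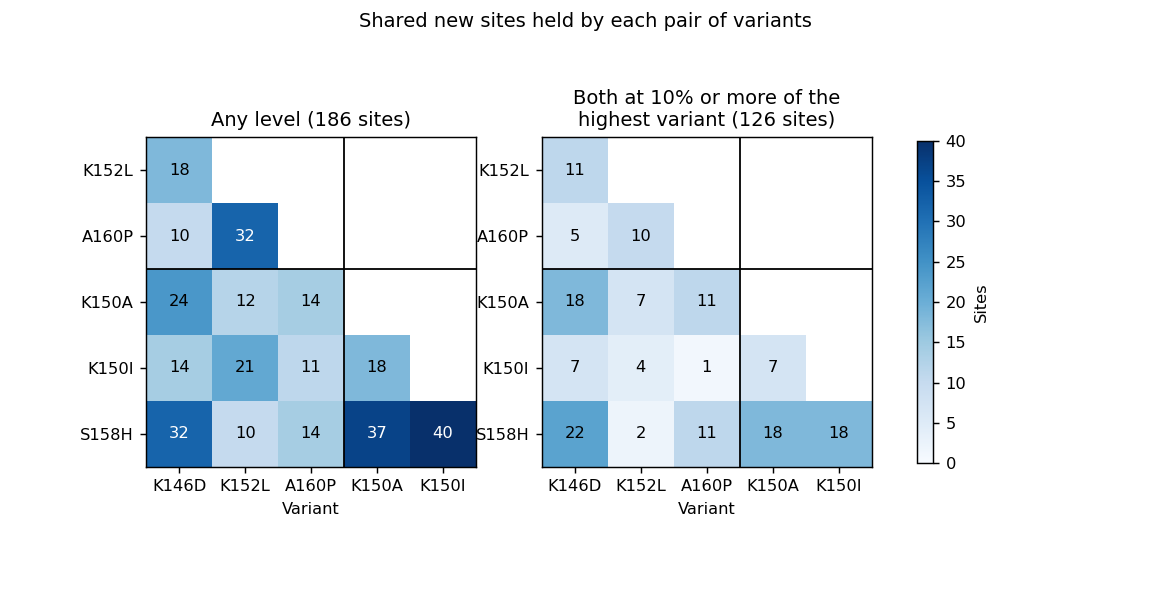
Number of shared new sites held by each pair of variants, counting a variant at any level in both replicates (left, 186 sites) or only at 10% or more of the highest variant's level (right, 126 sites). Black lines separate mating-defective from mating-competent variants. K150I with S158H falls from 40 to 18 and K152L with A160P from 32 to 10. A single UMI per replicate can reach 10% where the highest variant is low, so the right panel keeps thin sites more readily than strong ones.

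At a shared new site the variants seldom had similar levels. The highest variant had a median of 1952 UPM over the 186 sites, with a range from 120 to 267800, whereas the next variant had a median of 252, with a range from 114 to 5033. At 111 sites the second variant had a single UMI in 1 of its replicates. Among the 71 sites with at least 50 UMIs in the highest variant, the second variant was below 10% of the highest at 54, at a median of 5.14%, and reached 50% at only 2. At the remaining 115 sites, with under 50 UMIs in the highest variant, the median was 41.9%.

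The replicates of the highest variant were mostly close to each other at these sites, which the rule favours. It required UMIs in both replicates, and the highest variant was taken only among variants that met it. Of the 71 sites with at least 50 UMIs, 69 had replicate levels within 2-fold of each other, and of all 186 sites 155 did. Of the UMIs in listed peaks, shared new sites took 36.5% to 38.3% in the libraries of K152L and A160P and 29.2% and 29.6% in S158H. They took 15.1% to 19.8% in K150A and K150I, and 9.30% and 10.1% in K146D. In A160P most of this lay in 2 sites, near CAB3 and HBT1, which together held 33.3% and 32.0% of the listed-peak UMIs of its 2 libraries. All the other shared sites held 3.18% and 5.08%. In K152L the 2 highest sites held 7.61% and 6.52% and the others 30.7% and 30.0%, and in S158H the 2 highest held 16.3% and 13.7%.

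**Figure D2:**
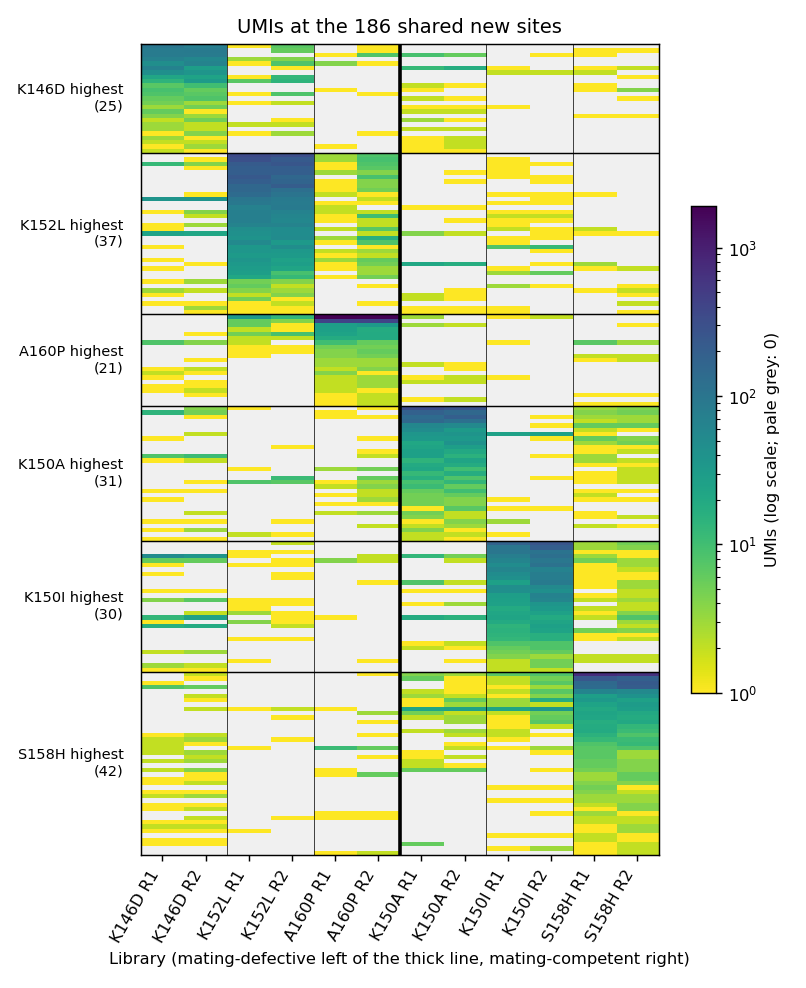
UMIs at each of the 186 shared new sites (rows, grouped by the variant with the highest level) in the 12 variant libraries (columns), on a log colour scale with 0 in pale grey. Each block is dark in the pair of columns of 1 variant, and the light columns beside it include A160P where K152L is highest and S158H where K150I or K150A is highest.

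**Figure D3:**
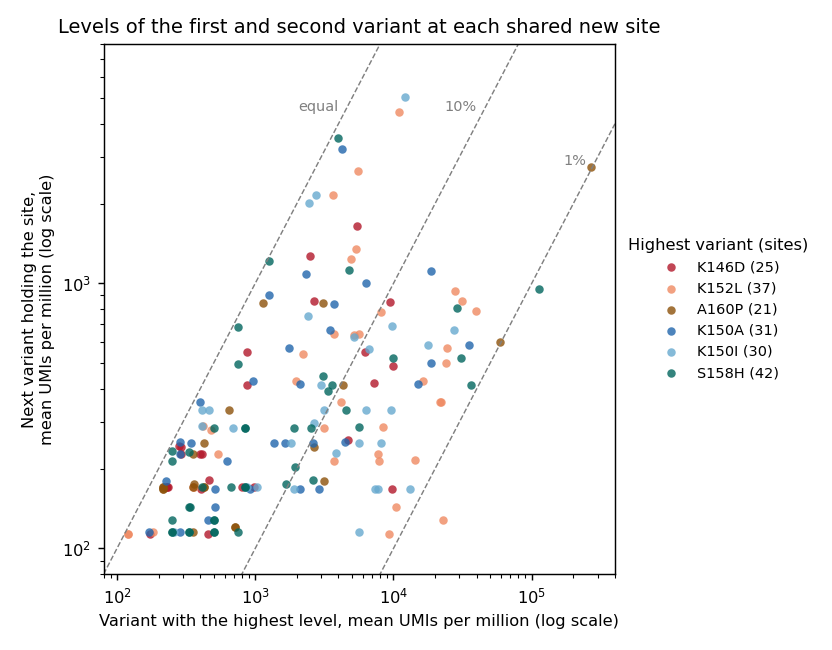
Mean level of the highest variant (x axis) against that of the next variant holding the site (y axis), in UPM on log axes, 1 point per shared new site, coloured by the highest variant. Dashed lines mark equal levels, 10% and 1%; at high levels of the first variant most points lie between 10% and 1%.

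The second variant at a high site was often the same one, though not where K146D was highest. Where K152L was highest with at least 50 UMIs, A160P came second at 19 sites, at a median of 2.72% of the K152L level. Where K150I was highest, S158H came second at 10 sites, at a median of 3.16%, and where K150A was highest, S158H came second at 8 sites, at 5.68%. Where S158H was highest, K150I came second at 7 sites, at 5.14%. Where K146D was highest, K152L came second at 3 sites, K150A at 2 and K150I and S158H at 1 each. The same was looked at without the WT condition, in all peaks with at least 50 UMIs in 1 variant and at least 10 times the level of any other genotype. Of 32 such peaks of K152L, A160P had UMIs in 27 in replicate 1 and 31 in replicate 2, at 1.28% and 3.96% of the K152L level. K150I had UMIs there in 15 and 17, K146D in 8 and 11, WT in 11 and 4, K150A in 3 and 6 and S158H in 3 and 3. Of 31 such peaks of K150I, S158H had UMIs in 25 and 30, at 2.03% and 3.12%. The others there were WT with 17 and 3, K152L with 14 and 11, K146D with 12 and 10, K150A with 8 and 15 and A160P with 1 and 7. Of 33 such peaks of K150A, S158H had UMIs in 27 and 29, at 3.54% and 4.54%. WT had UMIs there in 23 and 7, K146D in 7 and 20, A160P in 9 and 10, K152L in 5 and 8 and K150I in 6 and 6. Of 42 such peaks of K146D, WT had UMIs in 16 and 1, K152L in 8 and 8 and A160P in 6 and 8. S158H had UMIs there in 8 and 5, K150A in 6 and 7 and K150I in 3 and 2. Of 17 such peaks of S158H, K150I had UMIs in 12 and 15 and K150A in 11 and 12. Of 7 such peaks of A160P, K152L had UMIs in 7 and 7. In each set but that of K146D, 1 genotype had UMIs at the most peaks in both replicates, while other genotypes had some too. Why was not tested. When a variant was counted only at 10% or more of the highest level, 126 sites remained, of which 72 were held across mating classes, 32 by mating-competent and 22 by mating-defective variants alone. The largest pair was then K146D with S158H, at 22 sites. Where the highest variant has few UMIs, a single UMI per replicate of another passes the 10% limit, so this count keeps thin sites. The 18 sites held by K146D and S158H alone had a median of 502.5 UPM in the highest variant. At 13 of them the second variant had a single UMI in a replicate. The median was 3088 UPM for sites of K150I and S158H alone and 4704 UPM for those of K152L and A160P alone.

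The shared site with the highest UPM, at chrXI:275059-275168, lay 170 bp 5′ of the coding start of CAB3, which takes part in coenzyme A synthesis. The A160P libraries had 1901 and 1844 UMIs there. K152L had 33 and 13, K150I 1 and 2 and K150A 3 and 0. The A160P level was 267800 UPM, and K152L stood at 1.02% of it. A second A160P site, chrIV:60587-60689, 233 bp 5′ of HBT1, a gene of polarized growth, had 6 and 4 UMIs in K152L against 414 and 408 in A160P. At both sites A160P and K152L were far apart, and no mating-competent variant had more than 3 UMIs in a library.

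The highest site of a mating-competent variant, chrIV:1416934-1417036, lay between PEX29, a gene of the peroxisomal membrane (111 bp 5′ of its start), and DIG2, an inhibitor of Ste12 (414 bp 5′ of its start). S158H had 717 and 639 UMIs, K150I 7 and 8, and K150A 4 and 3. This was 1 of the 9 sites held by exactly the 3 mating-competent variants, and K150I stood at 0.838% of S158H. The next of the 9, chrII:329295-329397, lay inside the coding sequence of GIP1, with 247 and 189 UMIs in S158H, 2 and 5 in K150I and 6 and 1 in K150A. At chrX:585931-586034, 86 bp 5′ of the start of STE18, the γ subunit of the mating G protein, S158H had 23 and 20 UMIs, K150I 2 and 5 and K150A 5 and 2. MOB2, a partner of the Cbk1 kinase of polarized growth, had 32 and 25 UMIs in S158H, 3 and 17 in K150I and 1 and 6 in K150A at a site 190 bp 5′ of its start. JJJ2 was the case with K150I highest, at 26 and 88 UMIs against 8 and 2 in K150A and 1 and 3 in S158H. The single site of exactly the 3 mating-defective variants was likewise uneven, with 45 and 64 UMIs in K146D, 1 and 8 in K152L and 4 and 1 in A160P.

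K152L was highest at chrXIV:440743-440976, 290 bp 5′ of RAS2, a GTPase of the filamentation pathway, with 345 and 308 UMIs against 3 and 8 in A160P. It was also highest at chrX:469290-469391 within REC107, a gene of meiotic recombination, with 300 and 224 UMIs against 3 and 9 in A160P. K150A was highest 66 bp 5′ of APC9, a subunit of the anaphase-promoting complex, at chrXII:343782-343884, with 335 and 279 UMIs against 3 and 4 in S158H. K150I was highest at chrX:82443-82544 within ATG36, with 179 and 261 UMIs against 3 and 5 in S158H. Each of these sites was held by 2 variants and repeated the split into 1 high and 1 low variant. The pair K150I and S158H had its highest site of its own at chrII:466705-466808, 492 bp 5′ of RAD16, a DNA repair gene, where S158H had a mean of 30580 UPM and K150I 520.9, from 2 and 7 UMIs.

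Some of the 9 sites held by 4 variants had similar levels in several variants. At chrVII:289547-289647, 212 bp 5′ of CDC20, the activator of the anaphase-promoting complex, K150A had 23 and 25 UMIs, K150I 23 and 34 and S158H 20 and 28, whereas K152L had 1 and 2. The 3 mating-competent variants thus had means of 2732, 3532 and 4002 UPM, and the mating-defective variants at most 182. At chrV:285091-285197, 922 bp 5′ of VHR2, K146D had 13 and 25 UMIs, K150A 18 and 15, K150I 23 and 19 and S158H 2 and 8. K152L and A160P each had a single UMI there.

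At chrII:275705-275893, 272 bp 5′ of GAL7, an enzyme of galactose use, K152L had 43 and 49 UMIs, K146D 24 and 22, K150A 4 and 2 and S158H 1 and 1. Both hyper-invasive mating-defective variants were therefore high. The calling-card cells were induced in galactose. In the separately grown RNA-seq cells GAL7 expression was not tested because it did not pass the filter on low counts. At chrXI:308865-309004, 272 bp 5′ of YKL068W-A, K150A had 9 and 13 UMIs, K152L 8 and 7, A160P 1 and 3 and S158H 1 and 2. At 4 of the remaining sites 1 variant stood far above the rest. K152L was 1 of these, with 74 and 66 UMIs between RQC1 and SWR1 (chrIV:1135589-1135690), against 1 to 4 in K146D, A160P and K150I.

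**Figure D4:**
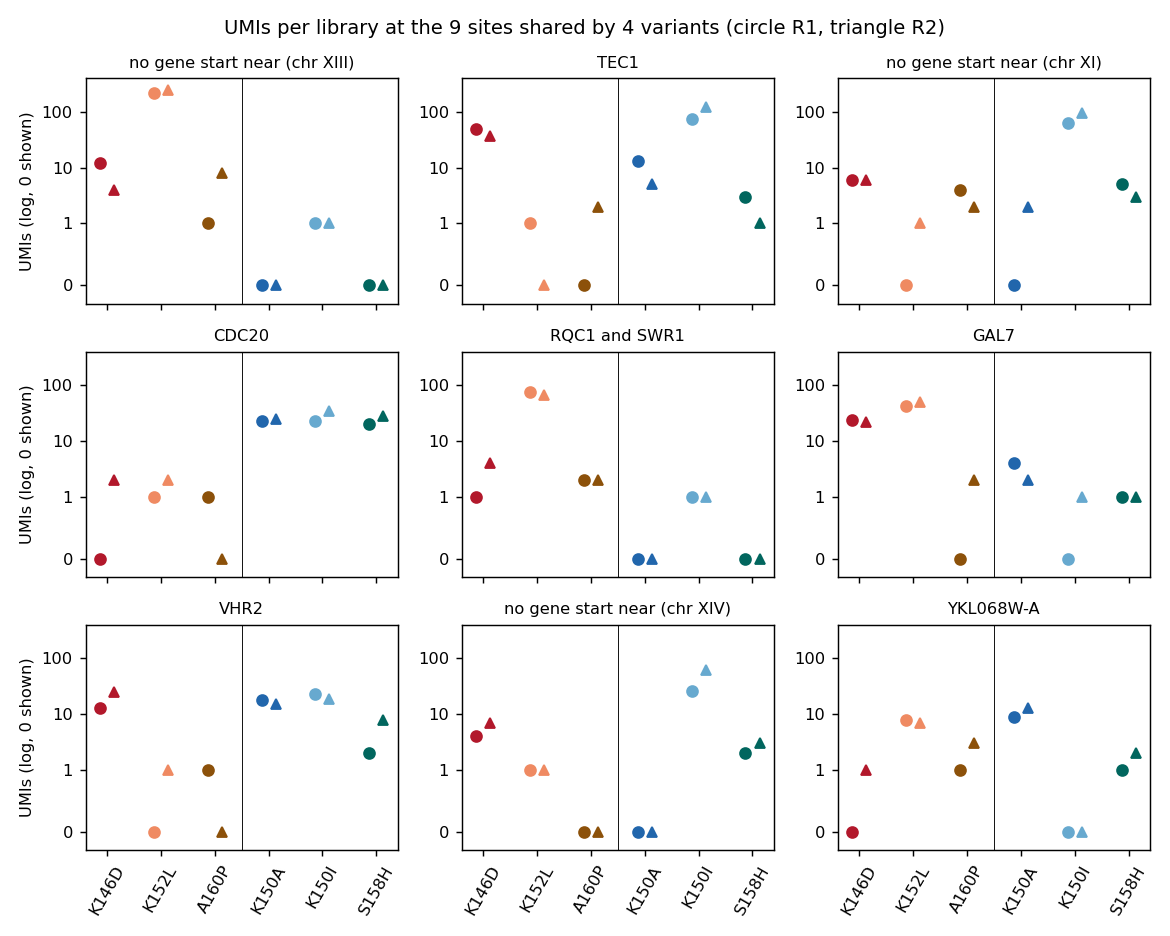
UMIs per library at the 9 sites shared by 4 variants, on a log scale with 0 shown, circles for replicate 1 and triangles for replicate 2; each panel carries the gene or genes whose start is near. CDC20 and VHR2 show similar levels in at least 3 variants, and the site with no gene start near on chromosome XIII shows K152L at 216 and 249 UMIs.

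Some shared new sites lay beside a WT site. Of the 186 sites, 16 (8.60%) were within 500 bp of a peak with UMIs in both WT replicates, near the 7.45% of all peaks. The share was 6.09% for the new sites of 1 variant and 11.35% for the WT sites, each measured to another WT site. At TEC1, the Ste12 partner gene, the shared site at chrII:408643-408746 was 84 bp from a WT site at chrII:408830-409225. K150I had 76 and 121 UMIs at the shared site and 2 and 7 at the WT site, where WT had 64 and 47. K146D had 50 and 37 UMIs at the shared site and 19 and 20 at the WT site, and K152L had 1 and 0 against 112 and 116. The variants thus differed in which of these neighbouring positions carried their insertions.

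At GIC2, an effector of the polarity GTPase Cdc42, the shared site at chrIV:1080737-1080838 was 122 bp from a WT site with 82 and 51 WT UMIs. K150A had 182 and 149 UMIs at the shared site and 30 and 33 at the WT site, and K146D had 14 and 5 against 0 and 6. At SST2, which turns off the pheromone signal by acting on the G protein Gpa1, the shared site was thin. K150A had 1 and 4 UMIs and K146D 1 and 1 at chrXII:1042091-1042192, inside the coding sequence of RIF2, 335 bp from a WT site with 91 and 37 WT UMIs. At that WT site K146D had 32 and 41 UMIs, K150I 24 and 20, K150A 7 and 7 and S158H 2 and 2. K152L had 0 and 2 there and A160P 1 and 1.

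Shared new sites lay near gene starts somewhat more often than new sites of 1 variant. The window reached 1000 bp upstream and 200 bp downstream of each coding start, and 129 sites (69.4%) lay in one. The share was 58.6% for new sites of 1 variant, 73.4% for sites with UMIs in both WT replicates and 62.4% for all peaks. These differences were not tested. The middle of the peak lay in a coding sequence for 25.8% of shared sites, 45.2% of new sites of 1 variant and 24.0% of WT sites. In both measures the shared sites were closer to the WT sites than to new sites of 1 variant. With a window of 500 bp up to the coding start the share was 51.6%, against 40.5% and 58.6%. In the mitochondrial genome lay 7 shared sites (3.76%), against 3.43% of all peaks and 0.589% of new sites of 1 variant. All 7 were held by S158H and 6 of them also by K146D, none with more than 7 UMIs in a library. The ribosomal DNA repeat held 3 (1.61%), all with S158H, against 0.686% of all peaks and 0.982% of new sites of 1 variant.

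The windows of 174 genes, 2.90% of the 6002 with a window, overlapped a shared site, among them 20 of the genes in the lists examined. These were 3 of 54 genes of pheromone response and mating (SST2, GIC2 and STE18), 4 of 31 of filamentous and invasive growth (TEC1, DIG2, RAS2 and YLR042C), 6 of 40 of the cell wall and adhesion, 3 of 42 cell cycle regulators (CDC20, CLN2 and PCL1), 3 of 33 of galactose and carbon source use and 1 of 138 ribosomal protein genes (RPS21B). None was among 25 genes of osmotic and general stress, 5 marker genes of α cells or 7 of a cells, and in each of these lists the share over all genes would give less than 1 gene. Among cell wall genes, FKS1, the main glucan synthase, had 33 and 28 UMIs in K152L, 21 and 17 in K150A and 1 and 5 in A160P at a site 311 bp 5′ of its start. UTR2, a cross-linking enzyme of the cell wall, had 136 and 104 UMIs in K152L at a site 132 bp 5′ of its start, against 2 and 1 in A160P. CRH1, another cross-linking enzyme, had 26 and 15 UMIs in K150A and 8 and 11 in K146D, so that the K146D level was 1088 UPM against 2328. The sensor gene WSC2 and the chitin synthase gene CHS1 had thinner sites, with at most 10 UMIs in a library at WSC2 and at most 3 at CHS1. The glycolytic genes were led by different variants: ENO1 had a mean of 16440 UPM in K152L and 427 UPM, from 1 and 5 UMIs, in A160P, and TDH2 had 14 and 16 in K150I and 1 and 1 in S158H. Of the G1 cyclin genes, CLN2 had 22 and 24 UMIs in K146D and 1 and 13 in K152L, and PCL1 had 16 and 19 in K146D and 14 and 26 in K150I.

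RNA-seq was not used by the rule, so the expression of genes beside these sites could be tested. A pair here is a gene and a variant that holds the site in its window. Of 402 pairs, 379 were tested, over 164 genes, with edgeR's quasi-likelihood test and Benjamini-Hochberg adjustment over 6139 genes. Only 6 pairs passed an adjusted p of 0.05, 1 higher and 5 lower than WT. Most genes beside shared sites showed no change that the test could call. By variant, 3 of 51 genes passed in K146D (5.88%), where 0.7% of all genes passed. The count was 1 of 58 in K152L, where 0.896% of all genes passed, and 2 of 71 in K150A, where 0.586% did. None of 53 passed in A160P, where 0.928% of all genes passed, and 3 of the 53 had an unadjusted p below 0.05. None of 62 passed in K150I, where 0.0652% of all genes passed, and 1 of the 62 had an unadjusted p below 0.05. None of 84 passed in S158H, where 0% of all genes passed, 179 genes had an unadjusted p below 0.05, 1 of them beside a shared site, and DESeq2 called 2 genes in all.

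Libraries with the same replicate number deviated together, and a fit with the replicate number as a block called 19 of the 379 pairs, among them all 6. These were 3 pairs in K146D (1.92% of all genes passed), 8 in K152L (3.62%), 2 in A160P (2.59%) and 6 in K150A (4.82%), and again none in K150I (0.391%) or S158H (1.19%). In the pairs that passed in that fit, 7 were higher and 12 lower than WT. Without replicate 4 of every genotype 17 pairs passed.

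SST2 was the called gene with the smallest p. In WT its RNA ran from 102 to 141 CPM (median 131) and in K146D from 13.2 to 31.1 CPM (median 16.3). The groups did not overlap. The log2 difference was -2.77 ± 0.19 (SE, n = 5 each, edgeR adjusted p = 8.44e-12). K152L and A160P, which do not hold the site, had medians of 19.3 and 20.0 CPM, at log2 differences of -2.65 ± 0.19 and -2.79 ± 0.19 (edgeR adjusted p = 1.04e-11 and 2.19e-12). K150A, which holds the site, had 96.7 to 118 CPM, overlapping WT (-0.25 ± 0.17, edgeR adjusted p = 0.885).

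TEC1 RNA ran from 94.4 to 130 CPM in WT and from 37.8 to 56.7 CPM in K146D, with no overlap, at a log2 difference of -1.38 ± 0.15 (edgeR adjusted p = 1.01e-07). The other variants that hold the TEC1 site overlapped WT, with medians of 107 CPM in K150A, 110 in K150I and 96.3 in S158H. K152L and A160P, which do not hold it, were lower than WT by -1.11 ± 0.14 and -1.38 ± 0.15 (edgeR adjusted p = 5.83e-06 and 7.47e-08). At the WT site 84 bp away K152L had 112 and 116 UMIs and A160P 1 and 5. The paper lists TEC1 among genes near sites common to all the variants.

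GIC2 had the same arrangement. In WT it ran from 145 to 206 CPM and in K146D from 74.0 to 105 CPM, at -0.81 ± 0.14 (edgeR adjusted p = 0.000953; 0.0847 without replicate 5 of every genotype). K150A, with the highest insertion level at GIC2, had 125 to 163 CPM, overlapping WT (-0.26 ± 0.14, edgeR adjusted p = 0.741). K152L and A160P, without the site, were lower by -0.70 ± 0.14 and -0.77 ± 0.14 (edgeR adjusted p = 0.00569 and 0.00142). At SST2, TEC1 and GIC2 all 3 mating-defective variants were thus lower than WT, whether or not they held the shared site.

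CDC20 RNA ran from 107 to 124 CPM in WT and from 58.9 to 82.0 CPM in K152L, at -0.61 ± 0.10 (edgeR adjusted p = 0.000171). K150A and K150I, with more insertions at the site, ran from 75.9 to 96.3 and from 85.5 to 102 CPM, also below every WT library, but did not pass (-0.39 ± 0.10 and -0.27 ± 0.10, edgeR adjusted p = 0.0545 and 1). With the block K150A passed (edgeR adjusted p = 0.000462) and K150I did not (edgeR adjusted p = 0.0693). S158H overlapped WT, at 82.1 to 120 CPM. A160P, without the site, was lower by -0.54 ± 0.10 (edgeR adjusted p = 0.000957).

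ALP1, an amino acid transporter, had few counts, from 7.98 to 15.1 CPM in WT and from 2.73 to 4.17 CPM in K150A, at -1.68 ± 0.27 (edgeR adjusted p = 0.000462). S158H, which also holds the site 762 bp 5′ of ALP1, overlapped WT (-0.46 ± 0.25, edgeR adjusted p = 1). The 4 variants without the site were all lower than WT, from -2.14 ± 0.27 in K152L to -1.33 ± 0.26 in K150I (edgeR adjusted p = 4.76e-06 and 0.0224).

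YLR042C, named NFG1 in the annotation, was the only gene called higher. It ran from 26.8 to 49.9 CPM in WT and from 47.5 to 78.8 CPM in K150A, so that the groups overlapped, at 0.80 ± 0.20 (edgeR adjusted p = 0.0484). The call was lost in 32 of 45 alternatives, with an edgeR adjusted p of up to 0.317, and was kept by DESeq2 and by the replicate block. S158H, which holds the site at a mean of 250 UPM against 2615 in K150A, had 21.3 to 41.8 CPM (-0.31 ± 0.20, edgeR adjusted p = 1). K146D and A160P, without the site, were lower than WT by -1.66 ± 0.22 and -1.93 ± 0.22 (edgeR adjusted p = 6.01e-06 and 2.41e-07).

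**Figure D5:**
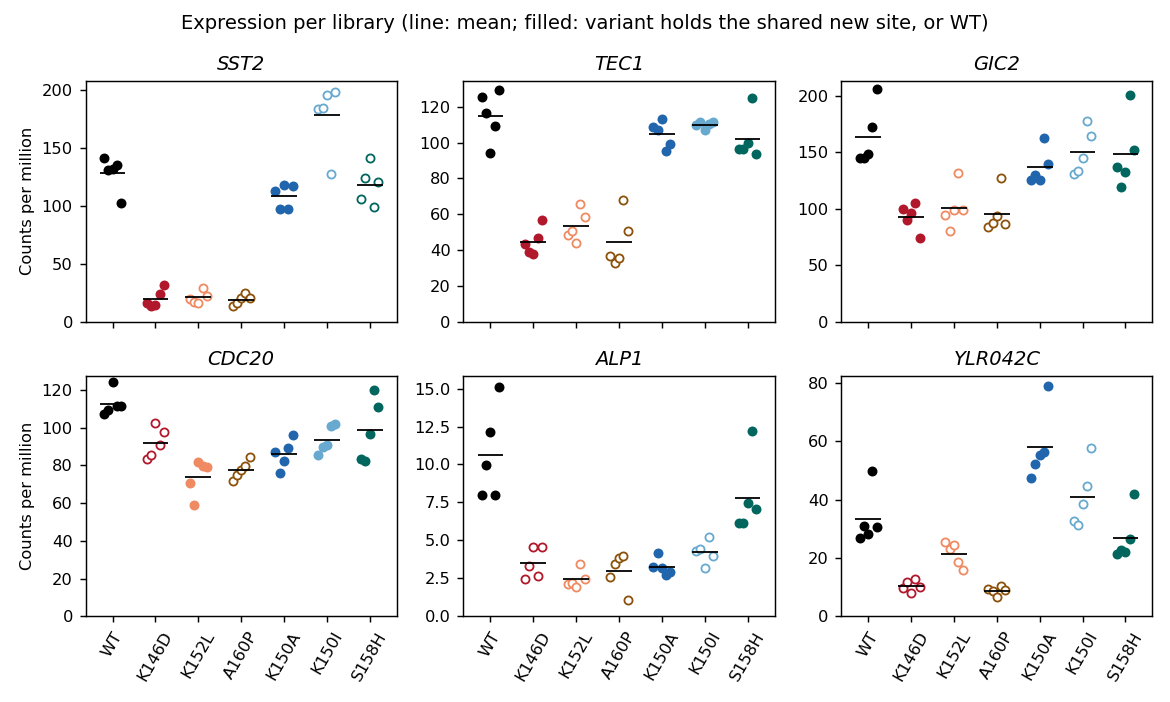
Expression (CPM) of the 6 genes called beside a shared new site, 1 point per RNA-seq library with the group mean as a line, filled for WT and for variants that hold the site. SST2, TEC1 and GIC2 are low in K146D, K152L and A160P, of which only K146D holds the site.

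No gene beside the 10 sites with the highest mean level was called in the variant with the highest level. HBT1 and CAB3 did not pass in A160P, nor did DIG2 in S158H, where it had 1.66 to 2.09 CPM against 1.01 to 3.04 CPM in WT (0.07 ± 0.44, edgeR adjusted p = 1). RAS2 ran from 194 to 288 CPM in K152L and from 178 to 288 CPM in WT (0.00 ± 0.19, edgeR adjusted p = 0.999). FKS1 had 971 to 1440 CPM in K152L against 918 to 1330 CPM in WT (0.07 ± 0.16, edgeR adjusted p = 0.999), and STE18 had 51.3 to 67.7 CPM in S158H against 55.1 to 69.0 CPM in WT. With the block, 13 further pairs passed, among them CDC20 in K150A, HBT1 in K152L (0.84 ± 0.17, edgeR adjusted p = 0.00208) and CLN2 in K152L (-0.41 ± 0.10, edgeR adjusted p = 0.0185). NUR1 passed in that fit in 3 variants that hold its site, K152L, A160P and K150A, and was lower in each.

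Over all 51 tested genes of pheromone response and mating, 17 were lower in K146D, 15 in K152L and 22 in A160P, with none higher, against 5 higher and 1 lower in K150A, 3 higher in K150I and none in S158H. Only SST2, GIC2 and STE18 of these lay beside a shared new site. The median log2 difference over the 51 genes was -0.38 in K146D and K152L, -0.58 in A160P, 0.12 in K150A, 0.09 in K150I and -0.14 in S158H, where the medians over all genes lay between -0.005 and 0.012. Of the 30 tested genes of filamentous growth, 4 were lower in K146D and A160P and 3 in K152L, with 1 higher in each, and 2 were higher in K150A. That list includes STE12, the gene carried on the plasmid, which was the 1 gene higher in K146D, K152L and A160P. In K150A the 2 higher genes were STE12 and YLR042C. The tested genes beside shared sites had a median absolute log2 difference above that of all genes in K146D (0.113 against 0.087), K150A (0.126 against 0.120) and K152L (0.110 against 0.104). It was below that of all genes in A160P (0.080 against 0.10), K150I (0.081 against 0.088) and S158H (0.087 against 0.098).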

How the data were processed

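Calling-card insertions were profiled for WT and 6 variants in 2 replicates each, and RNA-seq in 5 replicates each. The authors' calling-card table, as deposited, lists 2188 peaks with the natural log of UMIs per 1000000 UMIs in peaks (UPM) plus 1. Whole UMIs were recovered from it, with 100% of 30632 values within 0.001 of a whole number. No count test was run on these values. The RNA-seq values are UMI counts per gene for 7124 genes, as deposited by the authors. The submitters' processing notes name bcl2fastq, Trim Galore 0.4.1, STAR, MACS2 and build R64, without saying which step each served, and which tool and annotation gave the counts is not given in the sources used here. Transposase-only libraries were not used here.

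Shared new sites were taken by the rule above, and the members and the gene lists were chosen with earlier results of these data known. Phenotype classes are those the study gives. Gene starts came from the RefSeq annotation of R64, to which 6204 of 7124 genes were matched, and a gene was beside a site when at least 1 bp of the peak fell in its window, which reached 1000 bp upstream and 200 bp downstream of the coding start. No genome sequence was used here.

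RNA counts were tested with edgeR 4.0.16 in R 4.3.3 (quasi-likelihood, TMM scaling, filterByExpr, 1 fit over the 7 genotypes, Benjamini-Hochberg over 6139 genes, threshold 0.05), leaving out URA3. CPM are the TMM-scaled values. DESeq2 1.42.0 was an alternative. On data simulated for A160P against WT with 6109 genes, the test recovered 42% of genes changed 2-fold and 90% of those changed 4-fold. Libraries with the same replicate number deviated together, with a correlation over 0.1 in all 21 pairs of each number (lowest 0.19), whereas different numbers within 1 experiment had a median of 0.014. The labels give neither the meaning of a number nor whether replicates were separate cultures, so p-values measure only the spread between these libraries. Python 3.11.15, pandas 2.3.3, numpy 2.4.6, scipy 1.17.1 and matplotlib 3.10.9 were also used.

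The sites named are those held by at least 4 variants, the 10 with the highest mean level, the highest of the 3 largest exclusive pairs, and up to 5 held by exactly 1 phenotype class. The genes named are listed genes beside a site and genes called in a variant that holds the site. HBT1, CAB3 and NUR1 expression and the further genes of the block fit were chosen after their values were seen.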

Additional observations from a re-analysis of the deposited data

Results flagged for a closer look

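For the 6 genes called against WT in a variant that holds their site, that variant was compared with each other variant that holds it. The genes and the variant were chosen on that call, so the differences are not independent of it and were not sought in other genes. Of 11 such differences tested with edgeR's quasi-likelihood test and Benjamini-Hochberg adjustment over all genes, 7 passed an adjusted p of 0.05, and 10 passed with the replicate block. SST2, the desensitiser of the pheromone signal, was lower in K146D than in K150A by a log2 difference of -2.53 ± 0.19 (SE, edgeR adjusted p = 4.52e-11). TEC1, the Ste12 partner, was lower in K146D than in each of the other variants that hold its site, at -1.25 ± 0.15 against K150A, -1.32 ± 0.15 against K150I and -1.21 ± 0.15 against S158H (edgeR adjusted p = 8.29e-07, 2.61e-07 and 2.51e-06). The Cdc42 effector gene GIC2 was lower in K146D than in S158H by -0.66 ± 0.14 (edgeR adjusted p = 0.0145). CDC20 was lower in K152L than in S158H by -0.41 ± 0.10 (edgeR adjusted p = 0.0444). YLR042C was higher in K150A than in S158H by 1.11 ± 0.20 (edgeR adjusted p = 0.0038).

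Among 23 groups of 5 libraries checked, 7 held 1 library set apart from the other 4 by Dixon's criterion, which chance meets in about 1 of 20 groups. Replicate 4 of S158H was high for TEC1, at 124.8 CPM, and for ALP1, at 12.21 CPM. In WT, replicate 3 was high for CDC20 (124.2 CPM), replicate 4 high for YLR042C (49.91 CPM) and replicate 5 low for SST2 (101.9 CPM). For YLR042C replicate 5 was also high in K150A, at 78.76 CPM, and in S158H, at 41.79 CPM.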

How the results depend on the processing

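The number of shared new sites depended on the minimum level and on WT replicate 1. It was 77 with at least 2 UMIs in each replicate, 43 with 3 and 22 with 5, 374 when WT could hold up to 2 UMIs, and 47 when at least 3 variants were required. Leaving out 1 calling-card library at a time gave 189 to 482 sites, with 482 without WT replicate 1. Dropping a library loosens the rule, so this count could only stay or rise. The share of sites near a coding start was 51.6% with the window of 500 bp. The count of 6 expression calls was 2 with that window, 2 with a minimum of 3 UMIs, and 19 with the replicate block. Leaving out 1 replicate number in all genotypes, or 1 library, gave 4 to 17 calls, with 4 without replicate 5 and 17 without replicate 4. Without any single library it was 5 to 7. DESeq2 gave 7 calls, other size factors 5, no filter on low counts 5 and an experiment term 7. Of 274 alternatives for the named genes, 241 kept the call and 33 lost it, 32 of them for YLR042C and 1 for GIC2 (without replicate 5), and none changed direction. After seeing the data 3 alternatives were added: counting a variant at 10% or more of the highest gave 126 sites, leaving out mitochondrial and ribosomal DNA peaks gave 176, and leaving out 1 variant gave 124 to 153. Thinning each library to 5904 UMIs gave 199 to 237 sites over 100 draws. Alternatives that need a genome sequence were not run.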
